A study of Mus musculus with 10 samples.

Results

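Dlx2 is a homeodomain protein that directs the development of inhibitory neurons in the forebrain. Its binding was mapped by chromatin immunoprecipitation and sequencing in dissected mouse brain, and 10 genes of the Notch pathway were examined for called regions. They are the receptor genes Notch1, Notch2 and Notch3, the ligand genes Dll1, Dll3, Jag1 and Jag2, and the target genes Hes1, Hes5 and Hey1, taken as a list of 10 among 21887 protein-coding genes. A region was assigned to a gene when its summit, the position of strongest enrichment, lay within the mm10 gene body extended by 50 kb on each side. The 5 immunoprecipitated libraries came from the basal ganglia at embryonic day 16 (E16), the cortex at postnatal day 3 (P3) and at E16, and the olfactory bulb at P3 and at E16. The antibody was anti-Dlx2 in each, and the other 5 of the 10 samples are input libraries, not analysed here. The labels used here give no genotype, strain or number of pooled animals, and each group has 1 library, so no difference between tissues or ages has a replicate check.

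In the Notch pathway a ligand on 1 cell binds a receptor on its neighbour, and cleavage of the receptor frees an intracellular part that enters the nucleus. There it joins the DNA-binding protein Rbpj and a Mastermind coactivator and turns on Hes and Hey genes, whose products repress proneural genes. In the embryonic forebrain the pathway is known for keeping radial glia as progenitors while neighbouring cells differentiate.

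The lists held 14795 regions in the E16 basal ganglia, 2139 in the P3 cortex, 6333 in the E16 cortex, 734 in the P3 olfactory bulb and 1666 in the E16 olfactory bulb. Read depth is unknown, so a gene without a summit had no region past the calling threshold there, which does not show an absence of binding. Whole tissue was used, so fewer Dlx2-bound cells and less binding per cell cannot be told apart. The lists hold no expression values, so the labelled tissues could not be checked against marker genes. The basal ganglia and cortex lists of E16 use 1 pattern of peak names and the remaining lists use others, and those of the P3 cortex carry no mark for removed duplicates (0 of 2139). Where the patterns differ, a batch cannot be told apart from tissue or age.

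Summits lay near every one of the 10 genes in the E16 basal ganglia and near 8 of 10 in the E16 cortex, and near hardly any in the other lists. The E16 basal ganglia list had 36 summits in these windows and the E16 cortex list 27, while the P3 cortex had 1 (near Notch2), the P3 olfactory bulb 0 and the E16 olfactory bulb 1 (within Notch1). Dll3 and Jag1, both ligand genes, had 4 summits each in the E16 basal ganglia and 0 in the E16 cortex. Hes5 had more summits in the E16 cortex list than in the longer basal ganglia list (3 in the basal ganglia and 6 in the cortex), and Notch1 had the highest number in both, with 10 in the basal ganglia and 8 in the cortex.

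**Figure D1:**
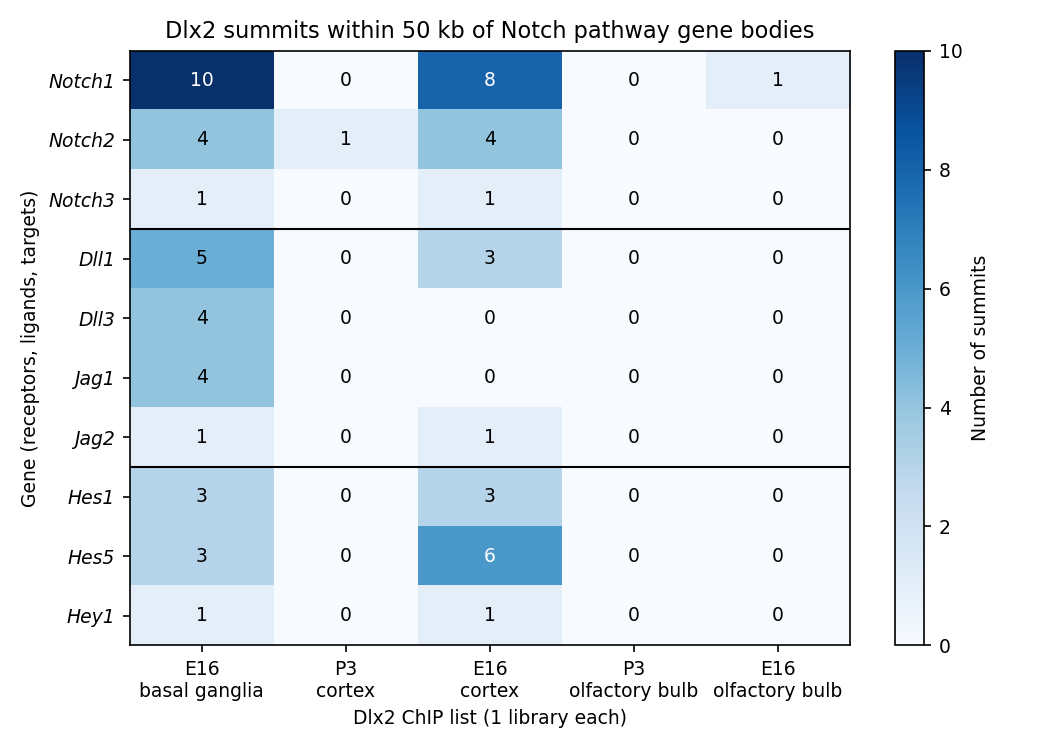
Number of Dlx2 summits within 50 kb of each gene body (rows, with receptors, ligands and targets separated by lines) in each list (columns, 1 library each). Counts reach 10 for Notch1 in the E16 basal ganglia, and the P3 olfactory bulb column is 0 throughout.

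These counts stand against lists in which many genes have a nearby region. Among all 21887 protein-coding genes, 42.4% had a summit within 50 kb in the E16 basal ganglia, 12.4% in the P3 cortex, 28.7% in the E16 cortex, 3.98% in the P3 olfactory bulb and 6.62% in the E16 olfactory bulb. The members' shares were 100%, 10%, 80%, 0% and 10% in the same order, so those of the P3 cortex and of both bulb lists, at 0 or 1 gene of 10, lay near the background. With the gene body extended by 10 kb, 8 members had a summit in the E16 basal ganglia (26.4% of all coding genes), 1 in the P3 cortex (6.09%), 6 in the E16 cortex (17%), 0 in the P3 olfactory bulb (2.03%) and 1 in the E16 olfactory bulb (3.59%). When a summit counted only for its nearest coding gene, the members numbered 8 (22.5% of all coding genes), 0 (6.05%), 6 (12.1%), 0 (2.18%) and 1 (4%) in that order of lists. With the gene body extended by 100 kb the members numbered 10 (55.2% of all coding genes), 3 (19%), 9 (37.5%), 0 (6.13%) and 3 (10.7%). For the 10 kb window and the nearest-gene count, Notch3 and Jag2 were the members lost in both the basal ganglia and the cortex. Their summits lie 42.9 to 47.4 kb outside them, within neighbouring genes.

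The members had a median length of 15.8 kb against 17.2 kb over all coding genes, and 5 of 10 (Notch1, Notch2, Notch3, Jag1 and Jag2) were longer than that median. Those 5 held 20 of the 36 summits in the E16 basal ganglia and 14 of the 27 in the E16 cortex. The members' joined windows spanned 1312 kb and held 2.74 summits per 100 kb in the E16 basal ganglia, against 0.698 over the joined windows of all coding genes. The same density was 0.0762 against 0.0925 in the P3 cortex, 2.06 against 0.364 in the E16 cortex, 0 against 0.0308 in the P3 olfactory bulb and 0.0762 against 0.0642 in the E16 olfactory bulb. The density is a description of single libraries and no test was made of it.

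**Figure D2:**
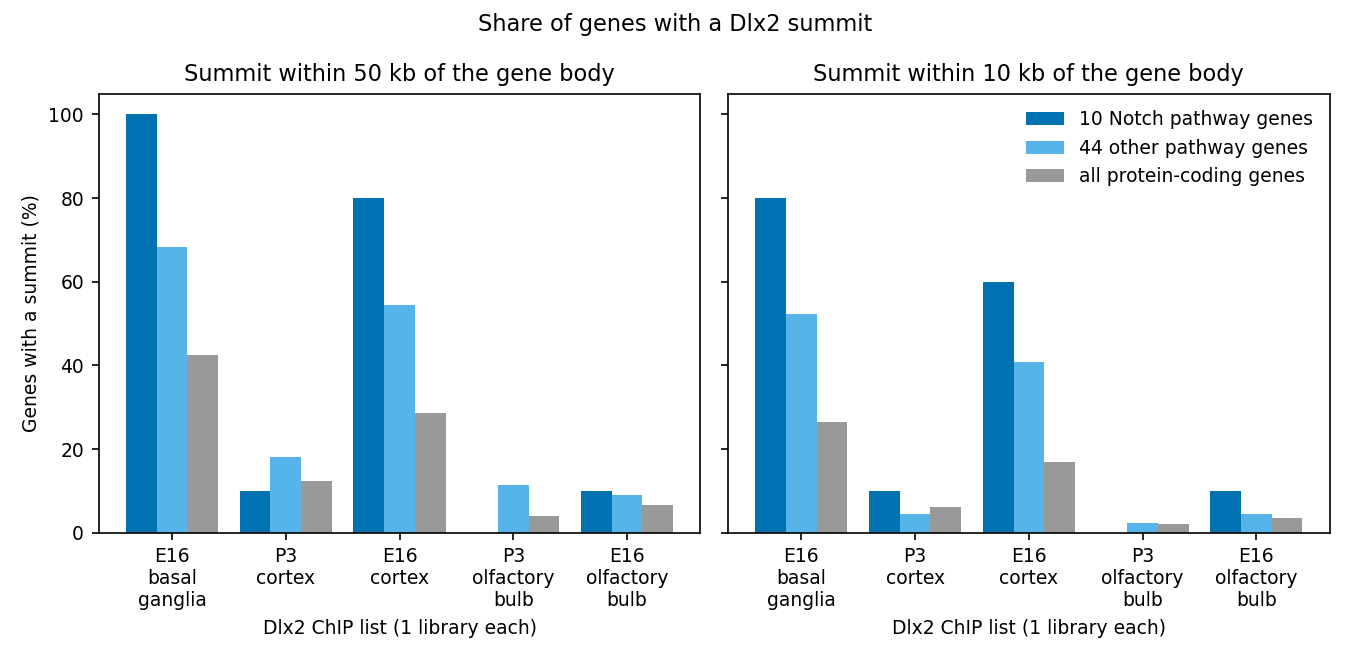
Share of genes (percent) with a Dlx2 summit within 50 kb (left) or 10 kb (right) of the gene body, for the 10 Notch pathway genes, 44 other pathway genes and all protein-coding genes, in each list (1 library each). The member bars stand at 100% and 80% for basal ganglia and cortex of E16 with the wider window, over 42.4% and 28.7% of all coding genes, and at 10% or 0% in the other lists.

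Transcription starts from RefSeq (GRCm38.p6, the same build as mm10) were matched for 8 of the 10 members, with 9 promoters of 300 bases each. Called regions touched 3 of these promoters, all 3 in the E16 basal ganglia list and 0 of 9 in each of the others. Over all 32851 promoters, regions touched 3.19% in the E16 basal ganglia, 0.791% in the P3 cortex, 1.13% in the E16 cortex, 0.192% in the P3 olfactory bulb and 0.277% in the E16 olfactory bulb, so with 9 promoters a count of 0 is near the background. The 3 touched promoters are those of the target gene Hes5 and the ligand genes Dll1 (the upstream of its 2 starts) and Dll3, whose sequences are printed because they are the places where a region covers a member's start. All are shown 5′ to 3′ on the strand of the gene, and capitals mark matches to the letters searched below. The Hes5 promoter is chr4:154960673-154960972 on the plus strand, that of Dll1 chr17:15376883-15377182 on the minus strand, and that of Dll3 chr7:28301736-28302035 on the minus strand.
Hes5: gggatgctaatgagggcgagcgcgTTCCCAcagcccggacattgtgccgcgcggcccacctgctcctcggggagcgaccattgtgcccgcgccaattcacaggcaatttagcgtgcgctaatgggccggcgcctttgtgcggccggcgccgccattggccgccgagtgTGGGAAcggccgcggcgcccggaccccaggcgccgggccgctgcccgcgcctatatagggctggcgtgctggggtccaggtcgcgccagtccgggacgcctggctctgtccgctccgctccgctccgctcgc
Dll1: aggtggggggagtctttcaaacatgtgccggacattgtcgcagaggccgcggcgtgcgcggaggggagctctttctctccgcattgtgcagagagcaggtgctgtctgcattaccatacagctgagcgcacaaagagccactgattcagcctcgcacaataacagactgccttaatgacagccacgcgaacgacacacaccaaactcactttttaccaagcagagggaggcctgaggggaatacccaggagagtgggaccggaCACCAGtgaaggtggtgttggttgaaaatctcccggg
Dll3: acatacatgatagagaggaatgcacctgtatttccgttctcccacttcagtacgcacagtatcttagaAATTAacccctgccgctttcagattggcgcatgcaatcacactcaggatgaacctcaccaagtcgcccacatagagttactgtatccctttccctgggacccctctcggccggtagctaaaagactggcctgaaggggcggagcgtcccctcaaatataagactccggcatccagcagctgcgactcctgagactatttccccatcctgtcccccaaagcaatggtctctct

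Regions covered 300 of the 300 bases at Hes5 and at Dll3 and 270 at Dll1. Both strands were searched for the homeodomain core TAATT, its palindrome TAATTA (which contains the core), the Rbpj core TGGGAA, the Hes and Hey box CACGTG and the Hes box CACNAG. The core TAATT was in 1 of the 9 member promoters, that of Dll3, and in 27% of all 32851 promoters of the same length. TAATTA was in 0 of 9 (5.29% of all) and CACGTG in 0 of 9 (7.15%). Hes5 held 2 copies of TGGGAA, 1 on each strand, and no other member promoter had it (25.6% of all). CACNAG was in 4 of 9, those of Notch1, Notch2, Notch3 and the upstream promoter of Dll1 (42.5% of all). The member promoters had a median of 68.3% G and C, from 52% at Dll3 to 86% at Jag2, against 52.7% over all promoters.

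Notch1, which encodes the main Notch receptor of forebrain progenitors (chromosome 2, 26457902 to 26503822), carried regions along its whole body. In the E16 basal ganglia all 10 summits lay within the gene, with fold enrichment, the authors' ratio of summit signal to local background, from 3.52 to 11.8. The 2 strongest lay 3.08 kb (11.8, −log10 q 53.7, rank 616 of 14795) and 2.06 kb (11.1, −log10 q 39.6) downstream of the start. A further one, of 4.12, lay 1.23 kb downstream, and the other summits were spread from 9.13 to 43.8 kb, with fold enrichment up to 6.65. In the E16 cortex the 8 summits had 4.03 to 5.86, and the strongest was 43.7 kb downstream of the start, near the far end of the gene. A cortex region 2500 bp downstream of the start (4.78) overlapped the second of the strong basal ganglia regions. The lone E16 olfactory bulb region in any of the 10 windows (4.11, −log10 q 5.49, rank 1408 of 1666) had its summit 118 bp from the strongest basal ganglia summit. The P3 cortex and P3 olfactory bulb lists had 0 summits at Notch1. Of all coding genes, 0.617% had at least as many summits in the body as Notch1 in the basal ganglia, 0.557% in the E16 cortex and 2.69% in the E16 olfactory bulb. Gene length was not taken into account in these shares, and Notch1 spans 45.9 kb against a coding median of 17.2 kb. Called regions covered 15.1% of the gene body in the basal ganglia, 10.5% in the E16 cortex and 0.993% in the E16 olfactory bulb.

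**Figure D3:**
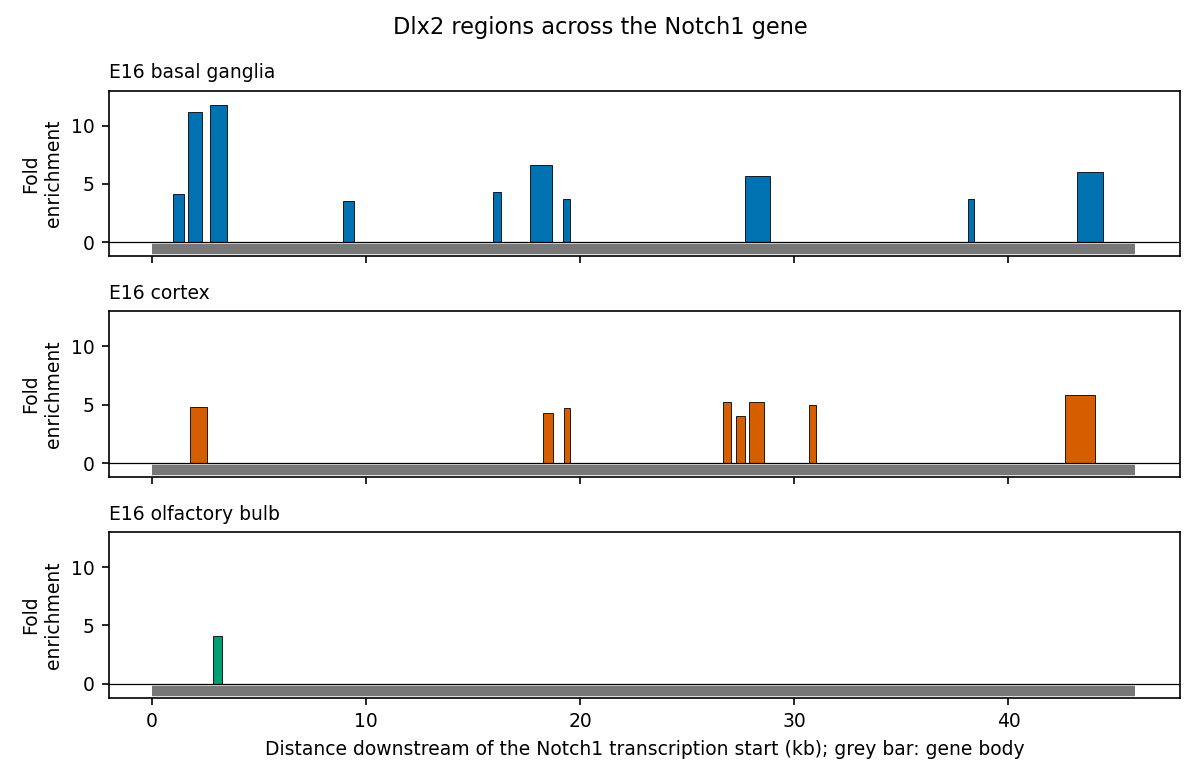
Dlx2 regions across Notch1 in the 3 E16 lists, by distance downstream of the transcription start (kb). Bar width is the width of the region and bar height its fold enrichment. The tallest bars, at 11.8 and 11.1, stand 2 to 3 kb from the start in the basal ganglia, and the bulb bar (4.11) stands at the taller of them.

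Notch2 (chromosome 3, 98013538 to 98150367), a second receptor gene, had 4 summits in its body in the basal ganglia and 4 in the E16 cortex, and 1 P3 cortex summit beyond its end. The basal ganglia summits lay 11.3 to 50.1 kb downstream of the start with 3.32 to 4.27, all below the list's median of 4.55, and that at 29.7 kb had the highest −log10 q (7.55). Among the cortex summits, at 11070, 25002, 91034 and 93481 bp, that at 25002 bp had the highest fold enrichment (6.73, −log10 q 13.3) and the others 4.35 to 4.56. The P3 cortex summit (4.51, −log10 q 6.72) lay 8.29 kb past the gene, nearest to Adam30, and no summit of the E16 cortex list was there. Notch3 (chromosome 17, 32120820 to 32166896), a receptor known chiefly from vascular mural cells, had 0 summits in its body in any list. Its window held 1 basal ganglia region (4.30) and 1 E16 cortex region (4.56), which overlapped each other 42.9 and 43.2 kb outside Notch3 and were nearest to another gene.

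Of the ligand genes, Dll1 and Dll3 carried basal ganglia regions at their starts. Dll1 (chromosome 17, 15367354 to 15376932), a Delta ligand of differentiating neural progenitors, had 5 summits in the basal ganglia. Those 4.52 and 3.33 kb downstream of the start were the strongest, at 6.45 and 6.90 (−log10 q 15.2 and 18.0), and another in the body, at 6.20 kb, had 3.13. The promoter region printed above had its summit 128 bp upstream of the start (4.44, −log10 q 8.18), and a further summit lay 2.04 kb upstream (4.09). The E16 cortex list had both strongest Dll1 regions, at 4.41 kb (6.08) and 3.27 kb (3.66), and a summit 43.5 kb upstream within Fam120b (4.78). It had no region at the promoter.

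Dll3 (chromosome 7, 28293555 to 28301785), a divergent Delta ligand that does not activate receptors on neighbouring cells, had 4 basal ganglia summits and 0 in each of the other 4 lists. They lay 2.86 kb downstream of the start (3.62) and 54 bp (3.91), 557 bp (4.88, −log10 q 8.60) and 10.3 kb (4.11) upstream, the last nearest to Timm50. Jag1 (chromosome 2, 137081451 to 137116520), a Jagged ligand gene, likewise had 4 summits in the basal ganglia and 0 elsewhere, at 1.46, 23.8, 29.1 and 29.7 kb downstream of the start with 3.71 to 4.11, all below the list's median. That at 23.8 kb had the highest −log10 q of them. Jag2 (chromosome 12, 112907803 to 112929812), the other Jagged ligand gene, had no summit in its body. Its window held a wide region 47.4 kb outside the gene in the basal ganglia (7.38, −log10 q 30.7, 1345 bp) and 47.3 kb outside it in the E16 cortex (10.1, −log10 q 37.1, 1050 bp). The 2 summits were 33 bp apart, at Brf1 and Btbd6, so this strongest cortex region of the set (rank 469 of 6333) is nearest to other genes.

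**Figure D4:**
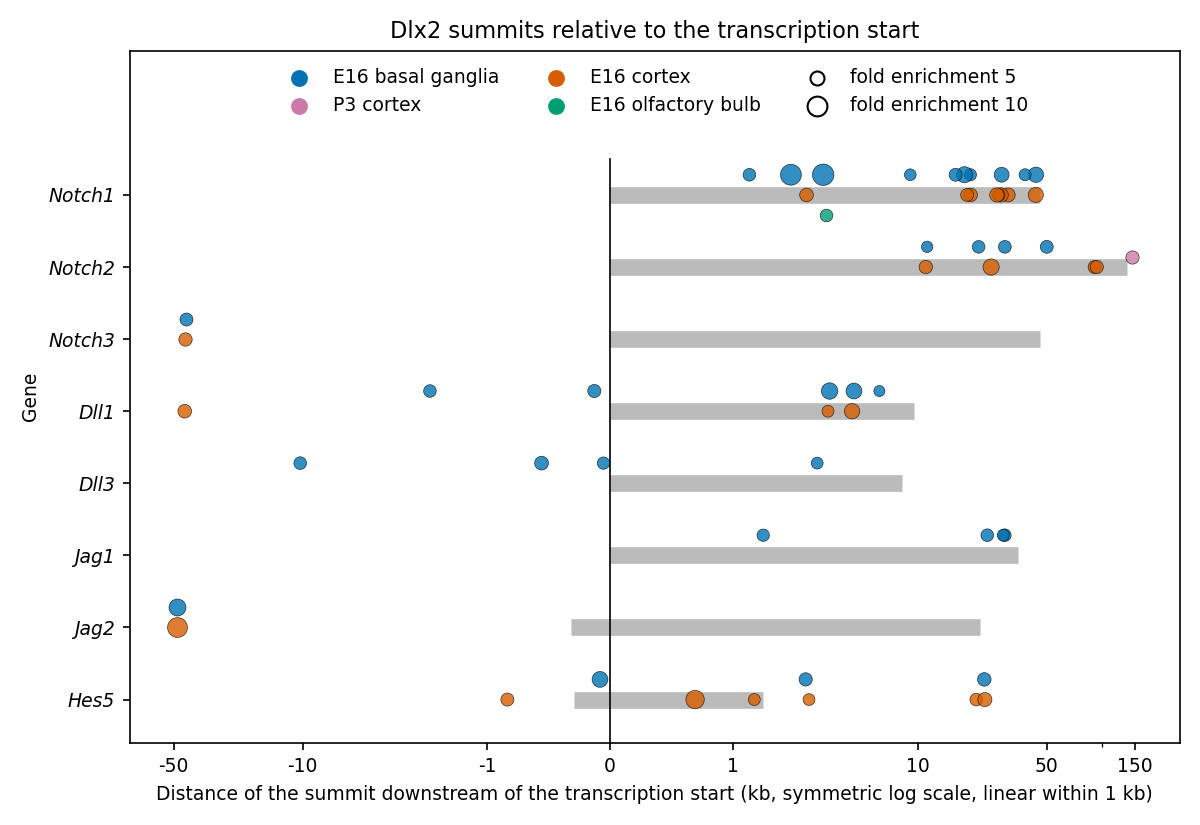
Distance of each summit downstream of the RefSeq transcription start (kb, symmetric log scale) for the 8 members with a matched start; grey bars are gene bodies, colour gives the list and marker area the fold enrichment. Summits at Notch1, Notch2 and Jag1 lie inside the genes, with 1 P3 cortex summit just past Notch2, and those of Notch3 and Jag2 lie over 40 kb upstream.

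The target genes are short, and regions sat on or beside them in basal ganglia and cortex of E16. Hes5 (chromosome 4, 154960626 to 154962372), a repressor that maintains radial glia, had a basal ganglia region of 1599 bp, the widest of the set, from 154960441 to 154962039 with its summit 82 bp upstream of the start (6.42, −log10 q 18.1). It covers the promoter printed above. In the E16 cortex the strongest Hes5 summit was 691 bp downstream of the start (8.67, −log10 q 21.2), with others 835 bp upstream (4.35) and 1.30 kb downstream (3.66). The strongest regions of both lists overlapped, with summits 773 bp apart. Regions covered 80.9% of the Hes5 body in the basal ganglia and 59.6% in the E16 cortex. Further summits lay past the gene, 2.47 kb downstream of the start in the basal ganglia (4.49) and 2.58 kb in the cortex (3.60). These overlapped and were nearest to Pank4. So did a pair within Plch2 (4.69 in the basal ganglia and 5.12 in the cortex), while a cortex summit 19.3 kb past the gene (4.13) had no basal ganglia counterpart.

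Hes1 (chromosome 16, 30065357 to 30067796), another Hes repressor of progenitors, had 3 summits in each of these lists. In the basal ganglia they had 2.78 in the gene, 3.55 at 640 bp past its upper boundary and 4.49 at 42.1 kb below its lower boundary, all under the list's median. In the E16 cortex the gene held 2 summits (8.02 with −log10 q 18.7, and 4.09), and 1 lay 545 bp past the upper boundary (5.82). The leading cortex summit was 128 bp from the basal ganglia summit in the gene. Hey1 (chromosome 3, 8663359 to 8667038), a Hes-related repressor, had 1 summit in its body in each list, 63 bp apart, at 4.26 in the basal ganglia and 3.66 in the cortex. None of the target genes had a summit in the P3 cortex, P3 olfactory bulb or E16 olfactory bulb lists.

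Most member regions of basal ganglia and cortex at E16 had a fold enrichment below the median of their list. In the E16 basal ganglia 11 of 36 exceeded the list's median fold enrichment, with a median of 4.22 against 4.55, and in the E16 cortex 10 of 27 did, with 4.72 against 5.02. The P3 cortex region had 4.51 against a list median of 4.42, and the E16 bulb region 4.11 against 5.25. Regions over 1 kb made up 7 of 36 in the basal ganglia (19.4%, against 13.8% of the whole list) and 3 of 27 in the E16 cortex (11.1%, against 25.2%). In the basal ganglia 25 of 36 summits lay in the body of the member, and 3 of the 11 outside lay in another coding gene. In the E16 cortex 19 of 27 lay in the body, and 4 of the 8 outside lay in another coding gene. Summits within 1 kb of a boundary of the member numbered 6 of 36 (16.7%) in the basal ganglia and 6 of 27 (22.2%) in the cortex. All those of the cortex were at the short genes Hes1 and Hes5. Hes5 spans 1.75 kb, so any summit in its body is within 1 kb of a boundary. The share over all genes was not computed.

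**Figure D5:**
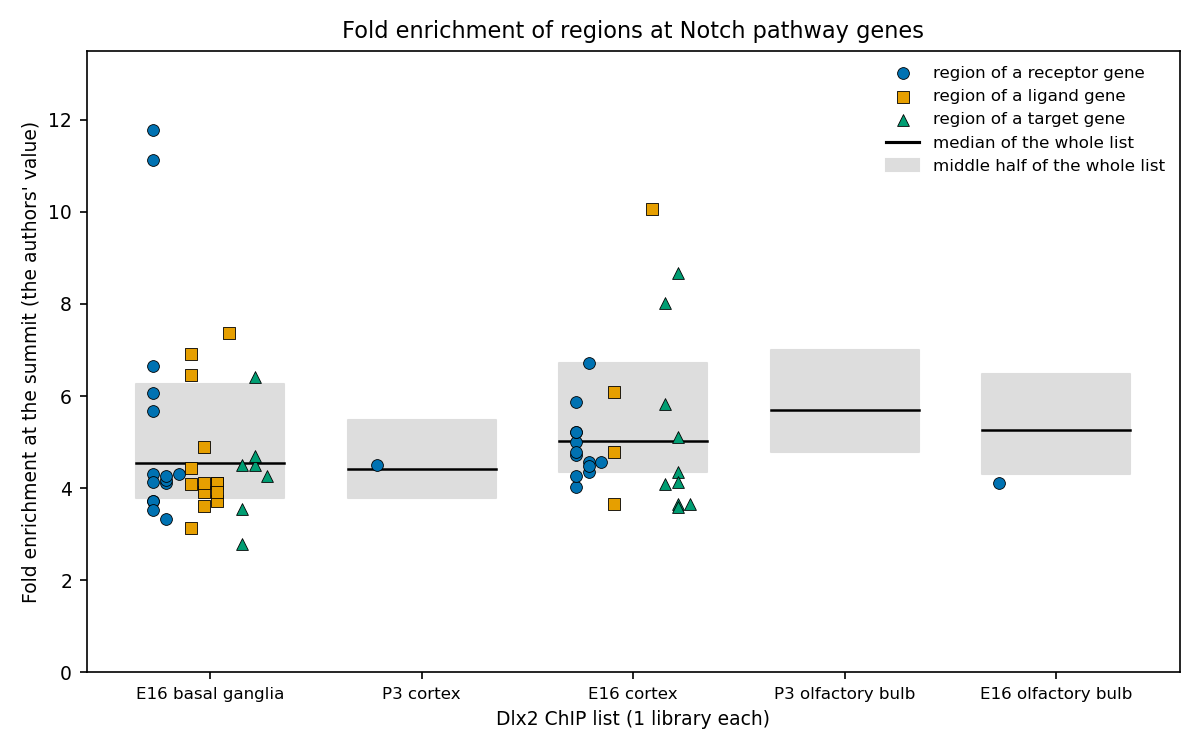
Fold enrichment of every region within 50 kb of a member (points, offset by gene and marked by role) in each list, with the median (line) and middle 50% (grey) of all regions of that list. Most points lie in or near the grey band. Within the basal ganglia list the highest are 2 Notch1 regions (11.8 and 11.1), and within the E16 cortex list the region in the Jag2 window (10.1).

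Basal ganglia and cortex at E16 shared part of these regions. Of the 36 basal ganglia regions, 16 overlapped an E16 cortex region by at least 1 bp (44.4%, exact 95% interval 27.9 to 61.9), against 26.4% of that whole list. In the other direction 17 of 27 cortex regions overlapped a basal ganglia region (63%, 42.4 to 80.6), against 61.5% of the whole list. They formed 17 pairs, at Notch1 (6), Hes5 (3), Hes1 (2), Dll1 (2), and Notch2, Notch3, Hey1 and Jag2 (1 each). Summits of a pair were within 200 bp in 12 cases, with a median gap of 128 bp and a range of 33 to 1000 bp. The intervals cover counting error in single libraries, and regions of 1 gene are not independent.

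Other comparisons rested on very few member regions. The E16 basal ganglia and E16 olfactory bulb shared 1 of 36 basal ganglia regions (2.78%, 0.0703 to 14.5, against 8.16% of the list), which was the 1 bulb region, at Notch1. No E16 cortex region overlapped an E16 bulb region (0 of 27, 0 to 12.8%, against 2.29% of the list). Across age, the P3 cortex region near Notch2 overlapped no E16 cortex region, and 0 of 27 E16 cortex regions overlapped the P3 cortex list (0 to 12.8%, against 1.71% of the list). The P3 olfactory bulb had no member region to compare with the bulb at E16 or with the cortex at P3. Merged by overlap, the regions of all lists formed 47, of which 19 were in the E16 basal ganglia alone, 10 in the E16 cortex alone, 16 in both, 1 shared by basal ganglia and bulb of E16, and 1 in the P3 cortex. None was in 3 or more lists.

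Most members shared their pattern over the lists with many other genes. Hes1, Hes5, Hey1, Dll1, Jag2 and Notch3 had summits in those 2 lists of E16, basal ganglia and cortex, and in no other, as did 4085 coding genes in all (18.7%), members included. Among them were 15 other pathway genes, Hes6, Ncstn, Nrarp, Spen, Mib2, Dtx1, Lfng, Numbl, Psenen, Dtx3, Maml1, Neurog1, Neurl1b, Dlk2 and Dtx4. Some are in this pattern through neighbouring genes. All Psenen summits were nearest to Arhgap33 or Kmt2b, and the Ncstn summits of the basal ganglia lay within Vangl2. Jag1 and Dll3 had summits in the basal ganglia only, as did 2489 (11.4%), among them Dner, Psen2, Rbpj, Mfng and Mib1. The pattern of Notch1, with the E16 bulb added to both, was that of 234 (1.07%), among them Maml3, a Mastermind coactivator gene. Notch2, with the P3 cortex added, shared its pattern with 691 (3.16%), among them Notch4, a receptor of endothelium, and Hes3.

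Among 44 other genes of the pathway, 30 had a summit within 50 kb in the E16 basal ganglia (68.2%), 8 in the P3 cortex (18.2%), 24 in the E16 cortex (54.5%), 5 in the P3 olfactory bulb (11.4%) and 4 in the E16 olfactory bulb (9.09%), beside the shares of all coding genes given above. All 6 genes of the nuclear complex, among them Rbpj and the Mastermind genes Maml1, Maml2 and Maml3, had one in the basal ganglia (42.4% of all coding genes). The count was 1 in the P3 cortex (12.4%), 4 in the E16 cortex (28.7%), 1 in the P3 bulb (3.98%) and 2 in the E16 bulb (6.62%). Gene length was not taken into account here, and the only Rbpj summit (3.78) lay 32.5 kb outside the gene. Among the 11 genes that ubiquitinate ligands and receptors or act in their uptake, 7 had one in the basal ganglia and 7 in the E16 cortex. In each of the other lists 0 of 11 had one, which is near the background given above. The only Numb summit, in the E16 cortex, lay 29.6 kb outside the gene within Heatr4 and Riox1. Of the regions of the 44 genes that lay within the gene itself, those of Dtx1, a Deltex ubiquitin ligase gene, had the highest fold enrichment. It was 22.4 in the basal ganglia and 32.5 in the E16 cortex. The regions at Maml1 (22.9 in the basal ganglia) and at Psenen, a gamma-secretase subunit gene (13.3 in the basal ganglia and 22.1 in the E16 cortex), lay in neighbouring genes, Mgat4b and Arhgap33. Genes with no summit in any list numbered 9 of 44, among them Hey2, Heyl and Adam17, against 50.3% of all coding genes (11006 of 21887).

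For the lists other than basal ganglia and cortex at E16, the strongest regions of the other pathway genes, by fold enrichment, were also examined. In the P3 cortex they included one near Hes3 (16.4, 46.6 kb outside it and nearest to Chd5) and one within Maml2 (9.20). In the P3 olfactory bulb they included regions near Aph1b (6.63) and Aph1a (6.19), both gamma-secretase subunit genes. The summit near Aph1b lay 26.6 kb outside it, within Car12, and that near Aph1a 30.6 kb outside it, nearest to Anp32e. In the E16 olfactory bulb a region within Maml3 had 5.14, and it overlapped an E16 basal ganglia region of 11.5. Hes3 and Maml2 also had summits in the E16 basal ganglia, as did Hes3 and Aph1a in the E16 cortex. Those lay elsewhere in the windows and did not overlap the regions named here. The P3 bulb region near Aph1b did overlap an E16 bulb region (4.43).

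Hes7, a Hes repressor of the segmentation clock, had summits in every list except the E16 olfactory bulb, with 1 in the E16 basal ganglia (2.66), 2 in the P3 cortex (4.70 and 4.15), 1 in the E16 cortex (5.43) and 1 in the P3 olfactory bulb (3.33). They lay 23.9 to 45.5 kb outside the gene, and none was nearest to Hes7. The nearest coding genes were Per1, Tmem107 and Vamp2, and the stronger P3 cortex summit was within the small nucleolar RNA gene Snord118.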

How the data were processed

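The authors deposited 1 narrowPeak list per immunoprecipitated library, made with Trimmomatic, Bowtie2, SAMtools and MACS2 on mm10, per the submitters' processing notes, which give no version. The control used for each call, its threshold and its depth were not given in the sources used here. Fold enrichment in the deposited lists is a ratio of summit signal to local background, and significance is −log10 of the q-value, both deposited per region. They describe and rank regions within a list and were not compared between lists.

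Summits (column 2 plus column 10, counted from 1) were assigned to gene bodies of a RefSeq table of GRCm38.p6 extended by 50 kb, for the 21887 protein-coding genes on chromosomes 1 to 19, X and Y. That table has no exons, so exonic and intronic positions were not separated. Called here means having a summit in the window. Regions overlapping by at least 1 bp were shared, with exact Clopper-Pearson 95% intervals. With 1 library per group no test between groups was made. The text names all 10 members, their region of highest −log10 q in each list, pathway genes with a member's pattern of lists and, of 44 other pathway genes, the 3 highest in fold enrichment per list and those in 4 or more lists; others are named as examples of a count, and some genes that this rule picks are not reported here. The members and lists were chosen with earlier results of these data known. The counting was tested on simulated data. Python 3.11.15, pandas 2.3.3, NumPy 2.4.6, SciPy 1.17.1 and matplotlib 3.10.9 were used. Alternatives were other windows, a stricter threshold, equal list lengths, narrow regions only, nearest genes and stricter overlaps.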

Additional observations from a re-analysis of the deposited data

How the results depend on the processing

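No paired analysis was possible because each group has 1 library and no result comes from a test. Of 99 alternative values, 78 stayed within 1.5 times the value reported. That number includes values of 0 that stayed 0, such as the member counts of the P3 olfactory bulb. A stricter rule cannot change a count of 0. With 734 regions per list, the length of the shortest, 1 member and 1 summit remained in the E16 basal ganglia (Notch1), 0 and 0 in the P3 cortex, 1 and 1 in the E16 cortex (the region in the Jag2 window), and 0 and 0 in the E16 olfactory bulb, and the other pathway genes with a summit numbered 4 in the E16 basal ganglia, 9 in the E16 cortex and 2 in the E16 olfactory bulb. The share of all coding genes with a summit was not computed for lists cut to 734 regions, so these counts have no background beside them. With 10 kb windows the other pathway genes numbered 2 in the P3 cortex, 1 in the P3 olfactory bulb and 2 in the E16 olfactory bulb. With 100 kb windows 3 members with 3 summits were found in the P3 cortex (19% of all coding genes had one) and 3 with 3 in the E16 olfactory bulb (10.7%). Counting nearest genes only left 0 members and 0 summits in the P3 cortex. Within 2 kb of a boundary lay 10 basal ganglia summits, against 6 within 1 kb. A −log10 q of at least 5, leaving out regions over 1 kb, counting any base of a region, and stricter overlaps moved none of their values by more than 1.5 times. The setting of 734 regions keeps fewer regions by construction; the cause of the other changes was not tested. Depth is unknown, so how many weaker regions each list missed cannot be given.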

Other observations

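A few summits lay between 50 and 100 kb of a member in the lists that had almost none nearer. In the P3 cortex a region 55.9 kb from Hes1 had a fold enrichment of 7.16 (−log10 q 22.2, rank 256 of 2139), and its nearest coding gene was Hes1. Its summit lay within the annotated gene 4632428C04Rik. Another P3 cortex region lay 99.3 kb from Hey1 (4.15), nearest to Mrps28. In the E16 olfactory bulb a region 61.0 kb from Notch2 had 6.72 (rank 310 of 1666) and was nearest to Reg4, and one 99.6 kb from Jag1 had 7.36 within Slx4ip.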
